A study of Mus musculus with 12 samples.

Results

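The urea cycle turns ammonia, which is toxic to the brain, into urea in the liver. 9 genes of the cycle and of ammonia supply to it were examined: Cps1, Otc, Ass1, Asl and Arg1, which encode the enzymes of the cycle, Nags, which makes the activator of the first enzyme, Slc25a13 and Slc25a15, which encode mitochondrial carriers, and Gls2, the liver-type glutaminase. They were chosen by symbol, and each matched 1 row among the 41128 genes of the table. The values came from liver RNA sequencing of 12 C57BL/6 mice aged 6 weeks, 1 library per mouse. All mice were littermates born germ-free and housed in sterile isolators up to weaning at about 21 days. The germ-free group (GF, 3 males and 3 females) stayed in isolators, whereas the conventionalized group (CV, 3 males and 3 females) spent 3 weeks in ordinary cages with soiled bedding from the facility, a source of microbes. Which mice shared a litter or, among CV mice, a cage was not given in the sources used here.

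As background, carbamoyl phosphate synthetase and ornithine transcarbamylase act in the mitochondrion, and the later enzymes act in the cytosol, so ornithine, citrulline and aspartate must cross the inner mitochondrial membrane. The cycle runs mainly in hepatocytes near the portal vein, where blood from the gut arrives. Gut bacteria release ammonia from urea and amino acids, and part of the urea made by the liver is broken down again by them in the intestine.

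The libraries differed between conditions in more than these genes. Recovered reads ranged from 5993619 to 10975691 in GF and from 8890529 to 15290835 in CV livers. 7 loci that resemble ribosomal RNA or take up reads of it (mt-Rnr1, mt-Rnr2, Lars2, Mir6236, Gm23935, Gm42418 and Gm15564, chosen after their values were seen) held 41.8 to 69.4% of the reads in GF and 5.39 to 21.9% in CV livers. CV males 2 and 3 had the highest CV shares (21.4 and 21.9%) and CV male 1 the lowest. In the library labelled CV male 3, Xist stood at 2382 and Y-linked genes had 0 reads, against at most 21.3 and at least 796 reads in the other libraries labelled male. It was kept under its label, and the calls of the 9 genes without it are given together after the gene-by-gene results. Reads of the 9 genes ranged from 9526 to 99272 per library, so counting error was small beside the differences between mice for the abundant members. Nags, the least abundant, had 41 to 968 reads per library.

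Values below are read counts divided by the size factor of the library, as deposited. A log2 change is CV minus GF on the log2(value + 1) scale with its standard error, and a gene is called changed at a Benjamini-Hochberg adjusted p under 0.05 in a limma fit of 11782 genes with a mean value of at least 10. All 9 genes passed that filter. Averaged over the sexes, 6 of the 9 genes were higher in CV livers, namely Nags, Otc, Arg1, Ass1, Slc25a15 and Slc25a13, and 0 were lower. Of all tested genes 61.1% were called, 32.3% higher and 28.7% lower. The median log2 change was 0.61 over the 9 genes and 0.07 over all tested genes. Abundant genes rose more often. Of 6052 genes with a mean value of at least 100, all 9 included, 2756 were called higher and 1559 lower, with a median of 0.35. The same 6 members were called higher in that fit, and 0 lower. Cps1, Asl and Gls2 did not pass. The plot of values by library shows the 12 libraries for each gene.

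**Figure D1:**
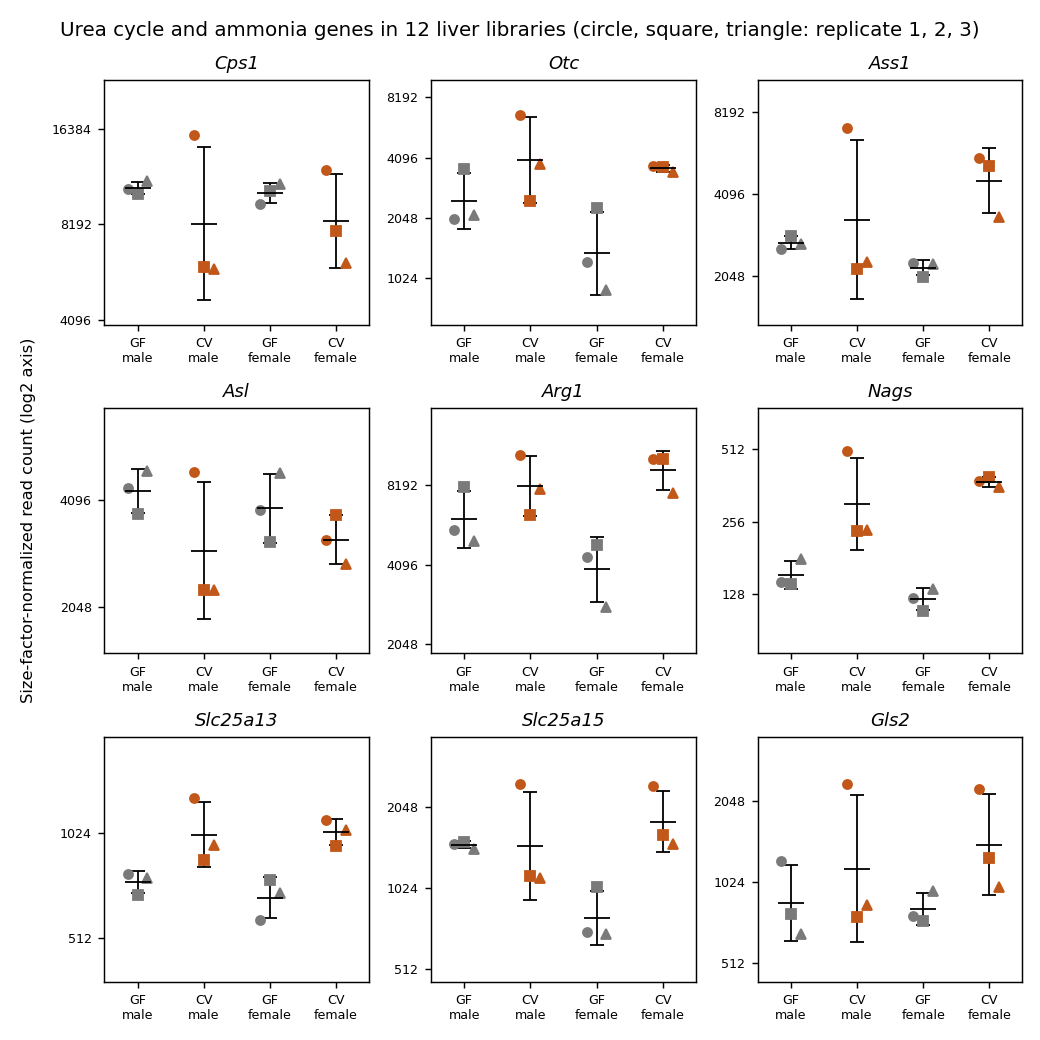
Size-factor-normalized read counts (log2 axis) of the 9 genes in GF (grey) and CV (orange) livers of each sex. Circles, squares and triangles are replicates 1, 2 and 3, and black marks give the mean and SD of the log2 values of the 3 libraries in a group. Nags and Slc25a13 separate all 6 CV from all 6 GF libraries, and CV male 1 is the highest CV library in each panel.

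Cps1 encodes the enzyme of the first step, which joins ammonia and bicarbonate to carbamoyl phosphate, and is one of the most abundant proteins of liver mitochondria. Its values were 10623, 10198 and 11198 in GF males 1 to 3, and 9528, 10398 and 10980 in GF females. They were 15628, 6002 and 5914 in CV males and 12149, 7808 and 6193 in CV females. The GF libraries lay close together, whereas 2 CV libraries, male 1 and female 1, exceeded every GF library and the other 4 CV libraries lay below every GF library. Those 2 were also the libraries with the smallest share of the 7 ribosomal RNA-like loci, 5.39 and 5.75%. Whether that share plays a part was not tested. The log2 change of Cps1 averaged -0.34 ± 0.27 (95% interval -0.91 to 0.24, limma adjusted p = 0.295). Without CV male 1 it was -0.57 ± 0.20 and passed the test (limma adjusted p = 0.0260).

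Otc, the second mitochondrial enzyme, transfers the carbamoyl group to ornithine. It lies on the X chromosome at chrX:10252305-10321024 on the plus strand of GRCm38. Its values were 2028, 3591 and 2113 in GF males and 1227, 2296 and 895 in GF females, against 6700, 2473 and 3827 in CV males and 3736, 3684 and 3465 in CV females. In females every CV library lay above every GF library, while in males GF male 2 exceeded CV male 2. Otc was higher in CV livers by 1.05 ± 0.27 (log2, limma adjusted p = 0.00327), a 2.07-fold difference. The change was 1.41 ± 0.38 in females (limma adjusted p = 0.00528) and 0.68 ± 0.38 in males (limma adjusted p = 0.189).

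Nags encodes N-acetylglutamate synthase, whose product is the obligate activator of carbamoyl phosphate synthetase. The gene lies at chr11:102145513-102149477 on the plus strand of GRCm38. Values were 144, 141 and 179 in GF males and 124, 109 and 134 in GF females. CV males had 504, 234 and 235, and CV females had 378, 392 and 356. All 6 CV libraries lay above all 6 GF libraries. Nags had the largest change of the 9 genes, 1.29 ± 0.19 over both sexes (log2, limma adjusted p = 3.71e-05), or 2.45-fold. It was higher in CV by 0.97 ± 0.28 in males (limma adjusted p = 0.0163) and by 1.61 ± 0.28 in females (limma adjusted p = 1.70e-04). The male change was 1.15 ± 0.30 without the library labelled CV male 3 (limma adjusted p = 0.0133). Without CV male 1 it was 0.61 ± 0.21 and did not pass (limma adjusted p = 0.0562).

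Nags and Otc were called higher in CV livers under each scaling of the libraries tried, so their promoters are shown, from RefSeq on GRCm38.p6, each from 250 bases before to 50 bases after the gene start and printed 5′ to 3′ on the plus strand. The capitals mark GGGCGG or its reverse complement, the core of the GC box bound by SP1. The Nags window is chr11:102145263-102145562 and the Otc window is chrX:10252055-10252354.
Nags: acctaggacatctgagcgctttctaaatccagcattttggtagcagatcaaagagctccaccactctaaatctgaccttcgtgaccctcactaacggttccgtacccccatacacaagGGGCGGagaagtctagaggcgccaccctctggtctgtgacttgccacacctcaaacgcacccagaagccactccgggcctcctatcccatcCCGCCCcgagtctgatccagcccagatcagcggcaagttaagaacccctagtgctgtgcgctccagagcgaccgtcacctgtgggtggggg
Otc: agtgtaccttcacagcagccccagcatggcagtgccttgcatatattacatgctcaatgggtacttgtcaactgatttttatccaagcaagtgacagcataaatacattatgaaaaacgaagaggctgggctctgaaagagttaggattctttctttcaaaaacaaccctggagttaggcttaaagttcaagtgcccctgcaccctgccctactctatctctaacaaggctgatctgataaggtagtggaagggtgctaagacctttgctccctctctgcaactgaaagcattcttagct
The Nags window held GGGCGG 2 times, once on each strand, and the Otc window held 0 matches. GGGCGG was present in 35.7% of 32851 promoter windows of the same length. Neither window held any of the other 7 motifs searched on both strands, CCAAT (NF-Y, 37.4% of all windows), TATAAA (bound by TBP, 13.6%), TGACGTCA (the cyclic AMP response element, 1.79%), CAAAGTCCA (HNF4, 0.475%), TTGCGCAA (C/EBP, 0.183%), GTTAAT (the core of an HNF1 site, 7.10%) and AGAACA (the core of a glucocorticoid receptor site, 19.0%). The GC content was 57.7% in the Nags window and 44.3% in that of Otc, against a mean of 53.8% over all windows.

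Ass1 encodes argininosuccinate synthase, which joins citrulline and aspartate in the cytosol. Its values were 2584, 2877 and 2681 in GF males and 2290, 2043 and 2270 in GF females. They were 7137, 2170 and 2319 in CV males and 5546, 5160 and 3368 in CV females. The 3 CV females and CV male 1 lay above every GF library, while CV males 2 and 3 lay below the 3 GF males. Ass1 was higher in CV by 0.67 ± 0.26 over both sexes (log2, limma adjusted p = 0.0369), by 1.06 ± 0.37 in females (limma adjusted p = 0.0240) and by 0.28 ± 0.37 in males (limma adjusted p = 0.593). Of the 50-base words of its transcript, 55.3% also occur in Gm5424, which had 3 to 42 reads per library, so the split of reads between these copies is uncertain. The call over both sexes was lost in 8 of the 12 fits that left out 1 library (limma adjusted p = 0.0502 to 0.0859), among them the fit without CV male 1, where the change was 0.39.

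Asl, argininosuccinate lyase, releases arginine and fumarate. Its values were 4419, 3732 and 4927 in GF males and 3840, 3117 and 4851 in GF females, and 4907, 2279 and 2284 in CV males and 3161, 3706 and 2695 in CV females. CV males 2 and 3 and CV female 3 lay below every GF library, and the remaining CV libraries fell within the GF range. The log2 change was -0.42 ± 0.23 (95% interval -0.90 to 0.05, limma adjusted p = 0.114). Without CV male 1 it was -0.61 ± 0.17 and passed (limma adjusted p = 0.00808). Asl and Cps1 were the 2 members with a mean change below 0 in both sexes.

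Arg1, arginase of the liver, splits arginine into urea and ornithine and closes the cycle. Its values were 5534, 8017 and 5034 in GF males and 4384, 4862 and 2839 in GF females, against 10641, 6329 and 7937 in CV males and 10275, 10242 and 7633 in CV females. The female groups did not overlap, and in males GF male 2 lay above CV males 2 and 3. Arg1 was higher in CV livers by 0.83 ± 0.23 (log2, limma adjusted p = 0.00515), with 1.24 ± 0.33 in females (limma adjusted p = 0.00413) and 0.42 ± 0.33 in males (limma adjusted p = 0.345).

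Both carriers were called higher over the sexes but differed in their spread. Slc25a13, citrin, exports aspartate from the mitochondrion for argininosuccinate synthesis. Its values were 782, 680 and 758 in GF males, 574, 747 and 688 in GF females, 1287, 852 and 941 in CV males and 1110, 935 and 1042 in CV females, with all 6 CV libraries above all 6 GF libraries. The change was 0.54 ± 0.16 over both sexes (log2, limma adjusted p = 0.00895), 0.62 ± 0.23 in females (limma adjusted p = 0.0292) and 0.45 ± 0.23 in males (limma adjusted p = 0.146).

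Slc25a15 exchanges ornithine for citrulline across the inner membrane. GF males had 1493, 1520 and 1433 and GF females 700, 1032 and 686, while CV males had 2497, 1129 and 1113 and CV females 2446, 1616 and 1494. GF females were thus the lowest group, and CV males 2 and 3 lay below the 3 GF males. Slc25a15 was higher in CV by 0.59 ± 0.22 over both sexes (log2, limma adjusted p = 0.0310) and by 1.19 ± 0.31 in females (limma adjusted p = 0.00443). In males the change was -0.02 ± 0.31 (95% interval -0.68 to 0.65, limma adjusted p = 0.974). The call over both sexes was lost in 5 of the 12 fits that left out 1 library (limma adjusted p = 0.0610 to 0.0925), with 0.39 without CV male 1.

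Gls2 releases ammonia from glutamine in periportal mitochondria. Its values were 1224, 773 and 652 in GF males and 764, 734 and 947 in GF females, and 2364, 755 and 838 in CV males and 2262, 1253 and 974.8 in CV females. The female groups did not overlap, although CV female 3 lay just above the highest GF female. The change of 0.61 ± 0.28 (log2, limma adjusted p = 0.0720) did not pass over both sexes, nor did 0.79 ± 0.40 in females (limma adjusted p = 0.101). It passed over both sexes without the library labelled CV male 3 (0.72 ± 0.29, limma adjusted p = 0.0421). Gls2 overlaps Spryd4 on the opposite strand, which was itself higher in CV by 1.83 ± 0.18 (limma adjusted p = 1.24e-06) with 24 to 650 reads per library. Whether the counting used the strand was not stated.

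Within males, 1 of the 9 genes, Nags, was called higher in CV livers, and 0 lower, where 29.5% of all tested genes were called, 14.1% higher and 15.4% lower. Within females 6 were called higher, the same 6 as over both sexes, and 0 lower, where 55.8% of all tested genes were called, 29.8% higher and 26% lower. Every CV male lay above every GF male for 2 genes, Nags and Slc25a13, against 22% of all genes, and every CV female lay above every GF female for 7, all except Cps1 and Asl, against 34%. Nags and Slc25a13 also separated all 6 CV from all 6 GF libraries, against 15.6% of all genes. The difference between the sexes in the response was called in limma and edgeR for 0 of the 9 genes and 0 of all genes. In DESeq2 it was called for 0 of the 8 members with an adjusted p (Nags had none), against 24 of 1591 genes with one. The female change was above the male change in all 9, but in 6 when scaled outside the 7 ribosomal RNA-like loci. The median difference was 0.64 over the 9 genes and 0.06 over all tested genes. Without CV males 2 and 3, which leaves 1 CV male, it was -0.18 over the 9. How many of all genes changed more in females was not counted. The lowest unadjusted p was that of Slc25a15, whose response differed by 1.21 ± 0.45 (limma adjusted p = 0.417), and 1 of the 9 genes and 1382 of all 11782 had an unadjusted p under 0.05. The Slc25a15 difference was 1.01 ± 0.46 without the library labelled CV male 3 (limma adjusted p = 0.620) and 1.02 ± 0.47 without CV male 2 (limma adjusted p = 0.751). It passed without CV male 1 (1.59 ± 0.35, limma adjusted p = 0.0375), a fit that called 2.47% of all genes. Between the sexes, averaged over conditions, 0 of the 9 genes were called by limma, edgeR or DESeq2, against 1.16% of all genes in limma, and 0 of them had an unadjusted p under 0.05 in limma.

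**Figure D2:**
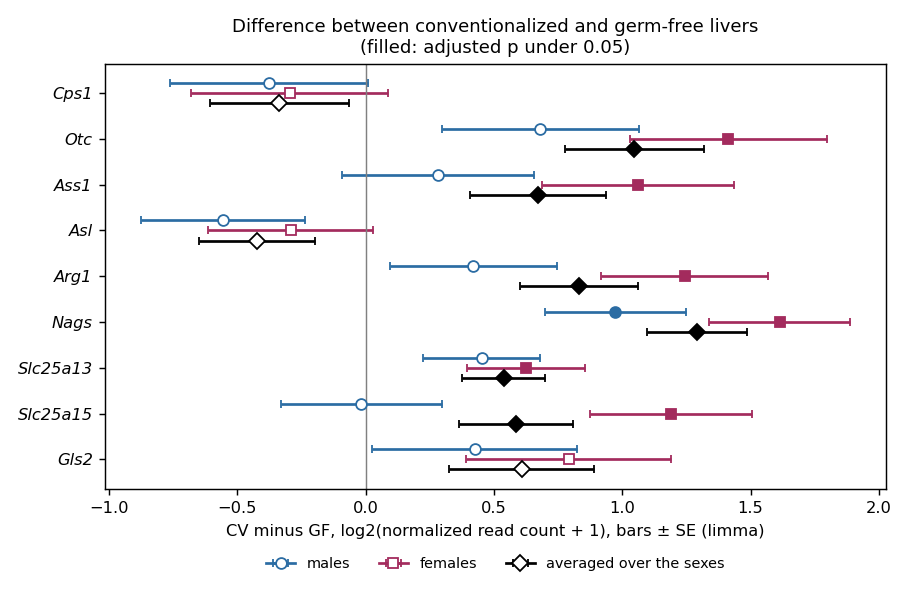
Difference between CV and GF livers in log2(normalized read count + 1) for the 9 genes, with bars of 1 SE from limma, in males (blue circles), females (red squares) and averaged over the sexes (black diamonds). Filled symbols mark an adjusted p under 0.05. Of the male values Nags alone is filled, and the female values lie to the right of the male values for each gene.

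Without the library labelled CV male 3, 7 of the 9 genes were higher over both sexes, against 32.1% of all genes. The 7 were the 6 named above and Gls2. Over both sexes the log2 changes were then 1.38 ± 0.20 for Nags, 1.06 ± 0.29 for Otc, 0.84 ± 0.25 for Arg1, 0.80 ± 0.27 for Ass1, 0.69 ± 0.23 for Slc25a15 and 0.56 ± 0.18 for Slc25a13, and -0.33 ± 0.24 for Asl and -0.22 ± 0.29 for Cps1, which did not pass. In males Nags was again the 1 gene called, against 12.1% of all genes higher, and the changes of the others ran from -0.37 ± 0.36 for Asl to 0.71 ± 0.44 for Otc. Nags and Slc25a13 were again the 2 genes whose CV males lay above every GF male, against 26.3% of all genes. The female change was above the male change in 8 of the 9 genes, with Cps1 the exception. The median difference was 0.46 over the 9 genes and 0.04 over all tested genes. In limma 0 of the 9 were called for the difference between the sexes in the response, against 4 of all 11782 genes. For sex 0 of the 9 were called, against 203 of all genes.

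CV males differed among themselves. CV male 1 was the highest of the 6 CV libraries in all 9 genes and the highest of all 12 libraries in 8, with Asl the exception. CV males 2 and 3 lay below the range of the 6 GF libraries in Cps1 and Asl and within it in Ass1, Arg1, Slc25a15 and Gls2. These 2 libraries carried more of the ribosomal RNA-like reads than the other 4 CV libraries, whose share was 5.39 to 7.96%. The part of this composition in the values of the 9 genes was not tested.

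Since each comparison of levels depends on how the libraries are scaled, ratios of 2 genes within a library were also compared. Such a ratio does not change with the scaling. The ratio of Nags to Cps1, activator synthesis against the enzyme it activates, was 0.0136, 0.0138 and 0.0159 in GF males and 0.0130, 0.0105 and 0.0122 in GF females. In CV livers it was 0.0322, 0.0389 and 0.0398 in males and 0.0311, 0.0502 and 0.0576 in females. All CV libraries lay above all GF libraries, CV males 2 and 3 included, and the log2 ratio differed by 1.64 between conditions, by 1.35 in males and 1.92 in females. Nags alone also separated the conditions in this way, as did 15.6% of all genes. How many other gene pairs separate as well was not counted, for this ratio or the next. An exact two-sided permutation test within sex gave p = 0.005, the smallest of its 400 relabellings, with 0.0125 after adjustment over 5 ratios.

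The ratio of Cps1 to Otc, the 2 mitochondrial enzymes in sequence, was 5.24, 2.84 and 5.30 in GF males and 7.76, 4.53 and 12.3 in GF females, against 2.33, 2.43 and 1.55 in CV males and 3.25, 2.12 and 1.79 in CV females. It was lower in CV within each sex without overlap, while over the sexes GF male 2 lay below CV female 1. The log2 ratio differed by -1.38 (exact permutation p = 0.005, adjusted 0.0125), by -1.06 in males and by -1.71 in females. When each library was corrected for transcript length and GC content, both ratios still differed, by 0.86 for Nags to Cps1 and by -0.99 for Cps1 to Otc (exact permutation adjusted p = 0.0125 for each). Without the library labelled CV male 3 the differences were 1.61 and -1.28, each with an exact permutation adjusted p of 0.025.

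For the other 3 ratios no difference was detected. Arg1 to Ass1, the last against the third enzyme, differed by 0.16 (exact permutation adjusted p = 0.83), with 1.25 to 2.79 in GF and 1.49 to 3.42 in CV livers. Slc25a15 to Slc25a13, the 2 carriers, differed by 0.05 over both sexes (exact permutation adjusted p = 0.83), by -0.47 in males and 0.57 in females. Gls2 to Glul, glutamine breakdown against glutamine synthesis, differed by 0.13 (exact permutation adjusted p = 0.83). Within 1 sex the smallest exact p is 0.1, so no test was made there.

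**Figure D3:**
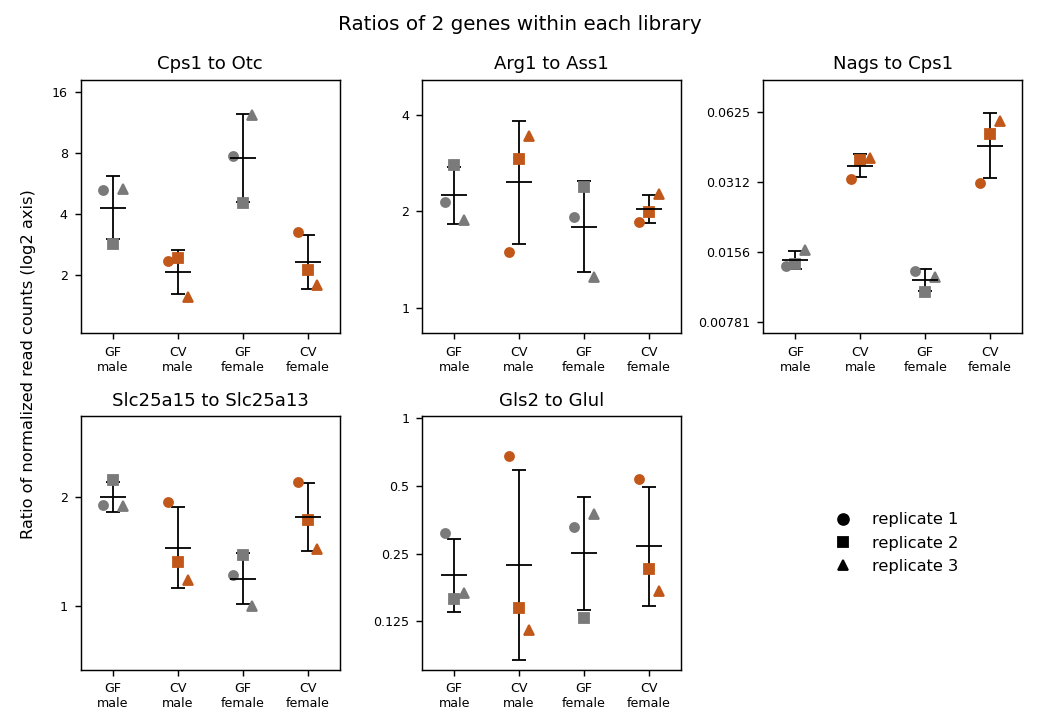
Ratio of the normalized read counts of 2 genes within each library (log2 axis) for 5 pairs, in GF (grey) and CV (orange) livers of each sex, with circles, squares and triangles for replicates 1, 2 and 3 and black marks for the mean and SD of the log2 ratios. Nags to Cps1 lies at 0.0105 to 0.0159 in GF and 0.0311 to 0.0576 in CV libraries. Cps1 to Otc is lower in CV than in GF libraries of the same sex.

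The choice of scaling altered the number and direction of calls among the members. Scaling to all reads moved the median of all genes from 0.07 to 0.62. There 7 members were higher and 0 lower, against 50.3% and 13.7% of all genes, and Cps1 changed by 0.22 and Asl by 0.14. Scaled to the reads outside the 7 ribosomal RNA-like loci, which moved the median to -0.38, Nags (0.83) and Otc (0.59) were called higher and Cps1 (-0.80) and Asl (-0.89) lower, against 18.2% and 41.3% of all genes. Relative to the median of all genes, Nags and Otc thus lay above it and Cps1 and Asl below it under these scalings. After correction for length and GC content, 4 members were higher, Otc (1.09), Nags (0.96), Slc25a15 (0.61) and Slc25a13 (0.50), and Asl was lower (-0.70), against 30.5% and 26.5% of all genes. Arg1 (0.32) and Ass1 (0.12) did not pass there.

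With either ribosomal RNA share as a covariate, 0 members were called in limma, but of all genes 0% were called with the mitochondrial share and 0.0594% with the share of the 7 loci, so nothing can be read from this about the members. Since the shares do not overlap between GF and CV livers, they and the condition cannot be told apart in those fits. In edgeR, run on recovered reads, the same 6 members were higher as in limma, against 29.5% of its tested genes higher and 31.3% lower. DESeq2 called these and Gls2 higher, against 23% and 27.5%.

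**Figure D4:**
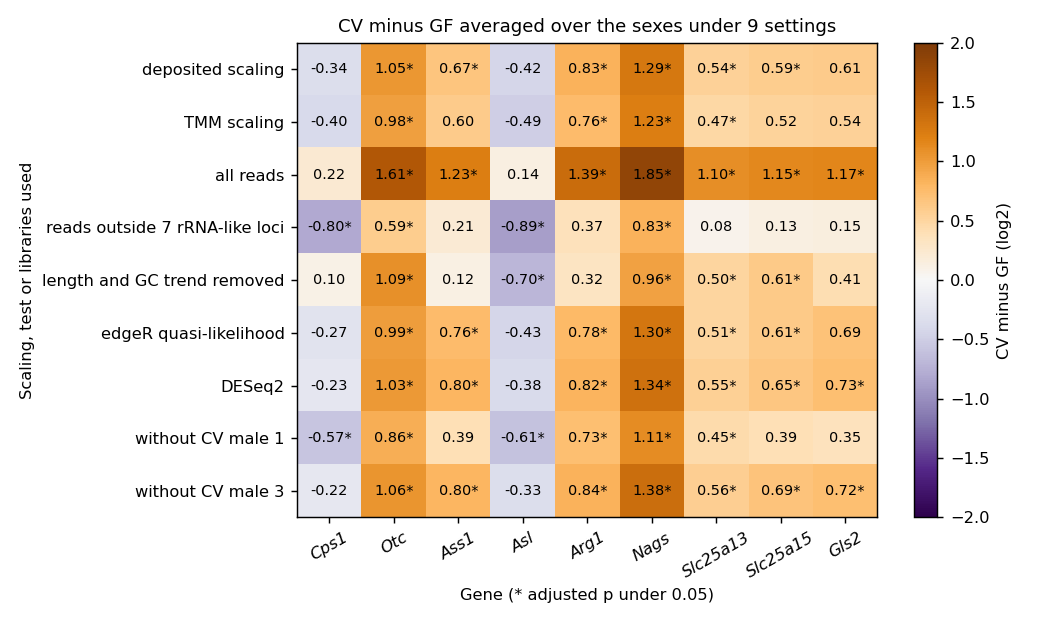
Log2 change from GF to CV livers averaged over the sexes (number and colour, orange higher in CV, purple lower) for the 9 genes under 9 choices of scaling, test or libraries, with * for an adjusted p under 0.05. The Otc and Nags columns carry * in each of these 9 rows, while Cps1 and Asl change sign between rows.

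Per kilobase of the annotated transcript, Arg1 was the most abundant of the 9 in each group and Nags the least. In GF livers the mean level per kilobase was 3461 ± 1148 for Arg1, 1888 ± 107 for Cps1, 1719 ± 293 for Asl, 1449 ± 182 for Ass1, 873 ± 407 for Otc, 334 ± 114 for Slc25a15, 330 ± 80.7 for Gls2, 226 ± 24.3 for Slc25a13 and 68.3 ± 11.6 for Nags (SD, n = 6). Neighbours in that order overlapped between libraries except Gls2 and Slc25a13, and Slc25a13 and Nags. In CV livers Ass1 (2525 ± 1169.5) and Otc (1717 ± 613) stood above Cps1 (1611 ± 727) and Asl (1315 ± 419), although neighbours from Ass1 to Asl overlapped (SD, n = 6). Arg1 (5987 ± 1205) did not overlap Ass1 there.

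Members correlated differently over the 12 libraries and within the groups. As a description over libraries that share condition, depth and composition, the Pearson correlation of log2 values was 0.94 between Otc and Arg1, 0.92 between Nags and Slc25a13 and 0.81 between Cps1 and Asl, against 0.003 between Cps1 and Otc. After the group means were removed, all pairs of members correlated above 0, from 0.13 for Asl and Arg1 to 0.94 for Asl and Nags. CV male 1 was the highest CV library in all 9 genes, and correlations without it were not computed. Pairs of other genes were not examined for comparison. Otc and Arg1 stood at 0.89, Nags and Slc25a13 at 0.67, and Cps1 and Otc at 0.48. Cps1 and Asl stood at 0.78, below Cps1 with Ass1 (0.93), Slc25a15 (0.90), Gls2 (0.90) and Nags (0.83). The gene most alike over the 12 libraries was Mlycd for Nags (0.99), Aifm1 for Otc (0.98), Hsd17b2 for Arg1 (0.98), Pcsk6 for Slc25a13 (0.97), Gart for Gls2 (0.96), Acat3 for Slc25a15 (0.96), Cpsf3 for Ass1 (0.95), Slc15a4 for Asl (0.91) and Fam120a for Cps1 (0.88).

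Genes around the cycle were taken from 7 lists, whose counts are set against 32.3% of all genes higher and 28.7% lower, and up to 4 of the most abundant members of each are named whatever their change. In bicarbonate, water and urea handling, 5 of 6 tested genes were higher in CV livers and 0 lower, against 3 and 0 when scaled outside the 7 loci. Car5a, the mitochondrial carbonic anhydrase that supplies bicarbonate to carbamoyl phosphate synthetase, changed by 0.80 ± 0.16 (limma adjusted p = 5.46e-04), but by 0.11 after the length and GC correction. The aquaporins, channels for water and small solutes, rose by 3.13 ± 0.41 for Aqp8 (limma adjusted p = 1.02e-05) and by 1.00 ± 0.18 for Aqp9 (limma adjusted p = 1.65e-04), and Car14, a membrane carbonic anhydrase, rose by 1.58 ± 0.31 (limma adjusted p = 3.66e-04).

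Among other uses of arginine and ornithine, 5 of 10 tested genes were higher and 1 lower, against 5 and 2 when scaled outside the 7 loci. The 4 most abundant all rose: Oaz1, an inhibitor of ornithine decarboxylase (2.00 ± 0.21), Agmat, which is annotated as an agmatinase (1.64 ± 0.18), Gamt, the last enzyme of creatine synthesis (1.47 ± 0.24), and Ddah1, which degrades methylated arginine (1.26 ± 0.27), with limma adjusted p-values of 1.63e-06, 3.13e-06, 7.43e-05 and 7.54e-04. In pyrimidine synthesis, the other use of carbamoyl phosphate, the cytosolic synthetase gene Cad fell by 1.45 on the log2 scale (limma adjusted p = 1.87e-05), while Umps and Dhodh, which act after it, rose by 1.24 and 0.83 (limma adjusted p = 1.05e-04 and 0.00941). Dhodh did not pass when scaled outside the 7 loci (0.37) or after the length and GC correction (0.42).

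In ammonia release and amino acid breakdown, 8 of 22 genes were higher and 4 lower. The balance turned with the scaling, to 4 higher and 6 lower outside the 7 loci and to 15 and 2 with all reads. Of the most abundant, Prodh2, hydroxyproline dehydrogenase, fell by 1.07 on the log2 scale (limma adjusted p = 5.50e-04), and Glud1, glutamate dehydrogenase, changed by 0.34 ± 0.20, Oat, ornithine aminotransferase, by 0.34 ± 0.26 and Tat, tyrosine aminotransferase, by -0.26 ± 0.36, none of which passed. Of 4 genes tested for glutamine synthesis and ammonia scavenging near the central vein, Glul, glutamine synthetase, changed by 0.48 ± 0.25 (limma adjusted p = 0.111), the glutamate transporter gene Slc1a2 fell by 0.71 and the amino acid transporter gene Slc1a4 rose by 1.01 (limma adjusted p = 0.00700 and 0.0103), although Slc1a2 changed by 0.38 after the length and GC correction and Slc1a4 did not pass when scaled outside the 7 loci (0.58). Rhbg was not analysed here.

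Of 12 amino acid carriers tested, 6 were higher and 2 lower, but 1 and 4 when scaled outside the 7 loci. Slc38a4, a transporter of neutral amino acids, rose by 0.82 ± 0.23 (limma adjusted p = 0.00508), whereas Slc38a3, a glutamine transporter (-0.03 ± 0.25), Slc7a2, a cationic amino acid transporter (-0.17 ± 0.20), and Slc25a22, a mitochondrial glutamate carrier (-0.41 ± 0.28), did not pass. Scaled outside the 7 loci, Slc38a4 (0.36) lost its call and Slc25a22 (-0.87) and Slc7a2 (-0.64) were called lower, whereas Slc7a2 was called higher (0.59) after the length and GC correction. Of 16 regulators, 4 were higher and 8 lower. These counts were 1 and 10 outside the 7 loci, 3 and 5 after the length and GC correction, and 7 and 2 with all reads. The glucagon receptor gene Gcgr fell by 1.16 on the log2 scale (limma adjusted p = 1.49e-04). Its values were 2173 to 3319 in the 6 CV libraries and 3591 to 7234 in the 6 GF libraries. The share of all genes that separate in this direction is not given here. Hnf4a, a hepatocyte transcription factor, rose by 0.44 ± 0.17 (limma adjusted p = 0.0358) but changed by -0.02 when scaled outside the 7 loci, and Cebpb (0.14 ± 0.23) and Klf15 (0.01 ± 0.22), further transcription factors, did not pass.

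**Figure D5:**
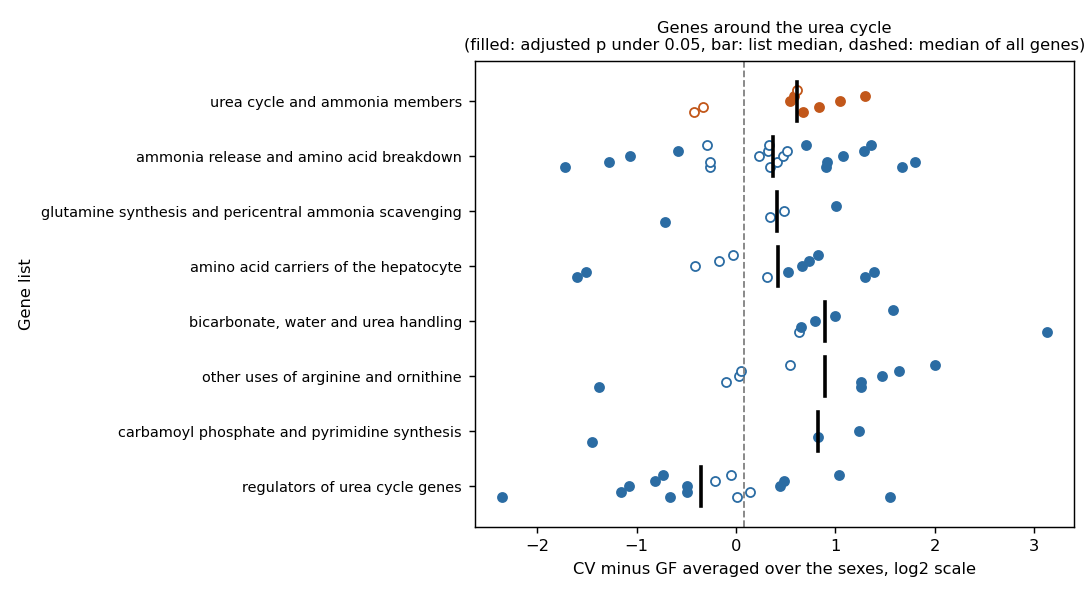
Log2 change from GF to CV livers averaged over the sexes for the 9 genes (orange) and the tested genes of 7 lists around the cycle (blue), 1 circle per gene, filled at a limma adjusted p under 0.05. Black bars are list medians, and the dashed line is the median of all tested genes at 0.07. The regulators have a median of -0.35, and the other lists lie at 0.38 or higher.

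Cell type markers moved with the condition as well. Their counts are given under the deposited scaling alone, against 32.3% of all genes higher and 28.7% lower. Other scalings moved the median of all genes from 0.07 to 0.62 or -0.38. Of 8 hepatocyte markers, 6 were higher in CV livers, with a summed value of 100976 to 469998 in GF and 408100 to 646759 in CV libraries. Of 8 periportal markers 6 were higher and 1 lower (sums 16324 to 24363 in GF and 19676 to 53336 in CV), and of 9 pericentral markers 4 were higher and 1 lower (20358 to 54910 and 72300 to 106967). Blood markers were lower in CV for 4 of 5 genes (2777 to 32885 in GF and 916 to 3159 in CV) and lymphocyte markers for 5 of 5 tested (213 to 350 and 54.4 to 84.3), whereas Kupffer cell markers were higher for 5 of 8 (1001 to 1887 and 1226 to 2762). Kidney markers, another tissue that uses arginine, were at 0 in all libraries for 4 of 5 genes. Small intestine markers summed to 629 to 1095 in GF and 2031 to 5035 in CV, but the 3 tested did not move together. Fabp2 and Apoa4 were higher in CV and Lgals4 was lower. The part of these markers in the changes of the 9 genes was not tested. In whole liver, fewer cells of a type and less RNA per cell cannot be told apart.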

How the data were processed

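Per the labels, liver RNA of 12 mice was made into stranded libraries and sequenced on an Illumina HiSeq instrument. The submitters' processing notes name HTSeq 0.6.1p1, DESeq2 and build GRCm38. The aligner and annotation are not given in the sources used here. The values are a signal, not raw counts: before depositing them, the authors scaled the gene counts of a library by its DESeq2 size factor. In each library 100% of values were whole multiples of 1 read within 0.01 read, so whole reads were recovered. Coordinates, transcript lengths and GC content came from GENCODE release M21 and promoters from RefSeq.

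The limma test (3.58.1) used log2(value + 1), genes with a mean of at least 10, a model of the 4 group means, eBayes with a trend and Benjamini-Hochberg adjustment over 11782 genes. The log2(value + 1) scale understates changes of low genes. The added edgeR test (4.0.16) on recovered reads called 7634 of 12555 genes over both sexes, and DESeq2 1.42.0 was a further alternative. Ratios used exact permutation within sex. Nothing says whether libraries were made in batches. Scripts were tested on simulated data. All 9 members are named, as are up to 4 of the most abundant genes of each other list and the gene most correlated with each member. The 9 members, the lists and the tests were chosen with earlier results of these data known.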

Additional observations from a re-analysis of the deposited data

Results flagged for a closer look

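Among the 6 CV libraries, the Otc value of 6700 in CV male 1 lay far from the others on the deposited scale. Its gap to the nearest library was 0.680 of the whole CV range, above the critical value of 0.625 for 6 libraries. The gap on the log2 scale of the limma tests, where high values lie closer together, is not given. This Otc set was the only one of 28 sets of 6 values checked, the 9 genes and 5 ratios in each condition, that passed, where chance gives about 1 in 20. CV male 1 had the lowest share of ribosomal RNA-like reads of all libraries, 5.39%. Without it Otc was still higher in CV livers over both sexes, by 0.86 (log2, limma adjusted p = 0.00811). The limma adjusted p-value ranged from 5.58e-04 to 0.0113 across the fits that leave out 1 library.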

How the results depend on the processing

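The 9 log2 changes over both sexes, in males and in females were recomputed under 29 settings, 4 of them chosen after the data were seen. Of 783 values, 633 kept their direction and their side of the threshold, 33 passed where they had not, 60 no longer passed and 57 changed sign. Some of them could not change direction. Leaving out a female library does not alter a male change, nor the reverse, and the abundance filters and replicate block alter no log2 change. Nags and Otc were called higher over both sexes in 27 of 27 settings other than the 2 covariate fits, Slc25a13 in 25, Arg1 in 23, Slc25a15 in 17 and Ass1 in 13.

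Of all 11782 genes, 2827 were called higher and 788 lower in males when scaled to all reads. Scaled outside the 7 loci, 874 were called higher and 2243 lower in males. With the mitochondrial share as covariate 3 genes were called in males, and with the share of the 7 loci 13. The number of members called over both sexes and in females was 0 with either ribosomal RNA share as covariate. In males it was 0 with either covariate and when scaled outside the 7 loci, 3 when scaled to all reads and 5 without CV males 2 and 3, a choice made after their values were seen that leaves the highest CV library alone, so its higher calls are no support. Leaving out 1 library gave 4 to 7 called members over both sexes (56.0 to 63.2% of all genes), 4 to 7 in females (46.8 to 59.1%), 0 to 1 in males (13.6 to 33.0%) (0 without GF male 1; 1 without CV male 1, which was Asl, lower) and 0 to 1 for the interaction (0 to 2.47%). The cause was not tested.

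With the mitochondrial ribosomal RNA share as covariate, the changes over both sexes, in males and in females were -1.77, -1.18 and -2.36 for Ass1, -0.50, -0.11 and -0.90 for Nags, and -1.39, -0.77 and -2.0 for Gls2. Those of Slc25a15 were -0.67 over both sexes and -0.57 in females, and those of Slc25a13 -0.064 and -0.22. With the share of the 7 loci as covariate they were, in the same order, -0.91, -0.62 and -1.20 for Otc, -2.08, -1.55 and -2.61 for Ass1, -0.55, -0.50 and -0.60 for Arg1, -0.50, -0.22 and -0.78 for Nags, and -1.07, -0.69 and -1.45 for Gls2, with -1.05 over both sexes and -0.996 in females for Slc25a15. Of these, 0 passed in limma.

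Scaled to all reads, Cps1 changed by 0.22 over both sexes and 0.51 in females, Asl by 0.14 and 0.52, and Slc25a15 by 0.29 in males. With the length and GC trend removed, with or without the replicate block, Cps1 changed by 0.10 over both sexes and 0.26 in females, and in males Ass1 by -0.11 and Slc25a15 by 0.013. In males Ass1 changed by -0.054 when scaled outside the mitochondrial ribosomal RNA and the 20 highest loci and by -0.018 outside the 7 loci, and in females Slc25a13 by -0.027 under the former. Slc25a15 in males was 0.053 in edgeR and 0.093 in DESeq2. Without CV males 2 and 3, Cps1 changed by 0.13 over both sexes and 0.55 in males, Asl by 0.18 in males and Slc25a15 by 0.75 in males. In males, leaving out 1 library gave -0.27 to 0.59 for Ass1 (-0.27 without CV male 1), -0.40 to 0.18 for Slc25a15 (0.0016 without GF male 2, 0.17 without CV male 2 and 0.18 without CV male 3) and -0.10 to 0.72 for Gls2 (-0.10 without CV male 1).

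Leaving out 1 library gave log2 ratio differences of 1.54 to 1.77 for Nags to Cps1 and -1.57 to -1.21 for Cps1 to Otc, all passing, of 0.03 to 0.34 for Arg1 to Ass1, of -0.057 to 0.12 for Slc25a15 to Slc25a13 (-0.015 without GF female 3, -0.057 without CV male 1, -0.033 without CV female 1) and of -0.28 to 0.37 for Gls2 to Glul (-0.11 without GF female 2, -0.28 without CV male 1, -0.12 without CV female 1).

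Deviations of same-numbered libraries of a sex correlated at -0.23 to 0.02. Those of same-numbered males and females of 1 condition correlated at 0.06, 0.40 and 0.07 in GF and 0.19, 0.12 and 0.17 in CV. Differently numbered libraries of opposite sex ranged from -0.41 to 0.39. Whether replicate numbers pair the samples was not tested further. With the replicate block 7 members were called higher over both sexes, Gls2 being added, where 3853 of all 11782 genes were called higher and 3375 lower. The block left the ratio differences at -1.38 for Cps1 to Otc and 1.64 for Nags to Cps1, with an exact adjusted p of 0.0781 for each, since its 64 sign exchanges allow no p below 0.0313. Depth, 5993619 reads or more per library, limits low genes such as Nags most.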
